A study of Mus musculus with 24 samples.

Results

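The effect of dietary methionine restriction (MR) over both protein sources of the series was measured by sequencing RNA from mouse liver. All 24 libraries of the series were used. The 12 MR libraries were compared with the 12 control libraries in a model that also held a term for protein source. Of 13441 genes tested, 3967 (29.5%) were called, meaning an adjusted p under 0.05 in edgeR's quasi-likelihood test with Benjamini-Hochberg adjustment over all genes tested. Of all genes tested, 1942 (14.4%) were higher and 2025 (15.1%) lower with MR. Among the 3967, 1260 genes (9.37% of those tested) were also called with like sign in each source separately, at 6 libraries against 6. Another 835 genes (6.21%) were called in neither source alone and were reached only with 12 libraries a side.

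The mice were males of the inbred strain C57BL6/J at 4 months of age. The 4 groups of 6 libraries were the control and the MR diet of each protein source, elemental or casein. In the elemental diets free amino acids stood in for protein, and in the casein diets the milk protein casein supplied it. Both control diets held 0.86% methionine and both MR diets 0.17%. The casein MR diet was labelled as oxidized casein and the casein control was not, so within casein, and in the casein share of every value over both sources, MR and oxidation cannot be told apart. The labels do not state that each library is a separate mouse, so p-values reflect only the spread among these samples, which may be technical.

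Methionine is an essential amino acid that starts proteins, donates methyl groups as S-adenosylmethionine and supplies sulfur for cysteine and glutathione. When an amino acid runs short, the kinase GCN2 slows translation and favours the transcription factor ATF4, which binds amino acid response elements in genes of amino acid synthesis, transport and tRNA charging. NRF2 is the transcription factor that induces glutathione and detoxification enzymes through antioxidant response elements. The liver also answers protein shortage with the hormone FGF21, and it sets circulating IGF1 under the control of growth hormone.

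The amino acid response is shown here by the promoters of the ATF4 targets Asns and Fgf21, printed because each holds a motif match. The rises Psat1, Aldh1l2 and Gsta1, searched by the same rule, had no match or no window. Asns (ENSMUSG00000029752) makes asparagine and was called in each source, while Fgf21 (ENSMUSG00000030827) was called only over both. The sequences are RefSeq promoter windows on GRCm38.p6, both on the minus strand and read 5′ to 3′ toward the gene. The Asns stretch is chr6:7693210-7693421, from base -212 to base -1 before the annotated start. The Fgf21 stretch is chr7:45615582-45615669, from base -179 to base -92. Capitals mark matches to the amino acid response motif TGATGNAA or the antioxidant response motif TGACNNNGC on either strand.
Asns: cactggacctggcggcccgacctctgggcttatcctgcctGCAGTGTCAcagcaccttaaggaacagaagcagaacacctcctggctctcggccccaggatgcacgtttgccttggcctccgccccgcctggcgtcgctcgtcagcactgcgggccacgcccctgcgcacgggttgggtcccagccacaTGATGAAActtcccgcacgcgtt
Fgf21: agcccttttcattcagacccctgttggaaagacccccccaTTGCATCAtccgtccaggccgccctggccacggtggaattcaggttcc
In Asns the amino acid response motif lay at bases -23 to -16 on the gene's strand, and a match to the antioxidant motif (TGACACTGC) lay on the opposite strand at bases -172 to -164. In Fgf21 the amino acid response motif (TGATGCAA) lay on the opposite strand at bases -139 to -132.

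Windows from 250 bases before to 50 bases after the start were found for 10003 of the 13441 genes tested. The amino acid response motif occurred in 2.85% of them and in 12 of the 33 listed ATF4 targets with a window (36.4%). It occurred in 4.75% of the genes called higher in each source and in 3.82% of those called higher only over both. The antioxidant motif is shorter in fixed letters and occurred in 16.8% of all windows, in 15 of 39 listed NRF2 and glutathione genes (38.5%), 7 of 26 of those called higher (26.9%), 9 of 33 ATF4 targets (27.3%), and in 21.6% and 15.9% of the genes called higher in each source and only over both. The ATF4 and NRF2 lists were assembled from known targets, in some of which these elements are known, so the shares in the lists are a description. A match is a run of letters and was not tested as a binding site.

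Depth lay between 13.5 and 20.8 M counted reads per library, from 15.3 to 19.9 M with MR and from 13.5 to 20.8 M with control (n = 12 each; two-sided permutation p = 0.604). The 20 most abundant genes took 31.8 ± 1.26% of reads with MR and 37.2 ± 0.835% with control, and mitochondrial transcripts took 12.2 ± 0.501% and 14.6 ± 0.907%. Each of these shares had a permutation p of 2e-05, the smallest that the permutations could give, and an adjusted p of 3e-05 over the 3 measures. The MR and control libraries did not overlap in either share. The median log2 fold change of all genes tested was 0.0019 and was 0.0027 and -0.0014 with other scalings. In bulk liver RNA, fewer cells of a type and less RNA per cell cannot be told apart. Alb, the albumin gene and a defining marker of hepatocytes, stood at 41815 CPM or more in every library. Summed CPM of 12 hepatocyte markers, 8 of which fell, ran from 82000 to 121800 with MR and from 122000 to 147100 with control. The casein MR library C_MR_3438 stood apart by skeletal muscle transcripts: 8 of 12 muscle markers were called higher over both sources, and 0 without that library. Without it, 1260 of the 1260 genes called in each source, and 673 of the 835 reached only over both (80.6%), were still called over both. In the same fit 1180 of the 1260 were still called in each source, and 609 of the 835 stayed in their class.

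The MR effects in the elemental and casein diets share no library, so they can be set side by side. With each source fitted alone, 1825 genes were called with elemental MR, and 94.6% of them had the same sign with casein MR. Of the 1825, 1176 (64.4%) were also called with casein MR, where 20.6% of all genes were called. In the other direction, 2768 genes were called with casein MR, 91.4% had the same sign with elemental MR, and the same 1176 genes made up 42.5% of them, against 13.6% of all genes. Only 8 genes were called with opposite signs. The same sign was seen in 69.5% of all genes and in 62.4% of genes called in neither source. Across genes, Pearson's r between the log2 fold changes was 0.685 and Spearman's rho was 0.536, a description only, as genes are not independent replicates.

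**Figure D1:**
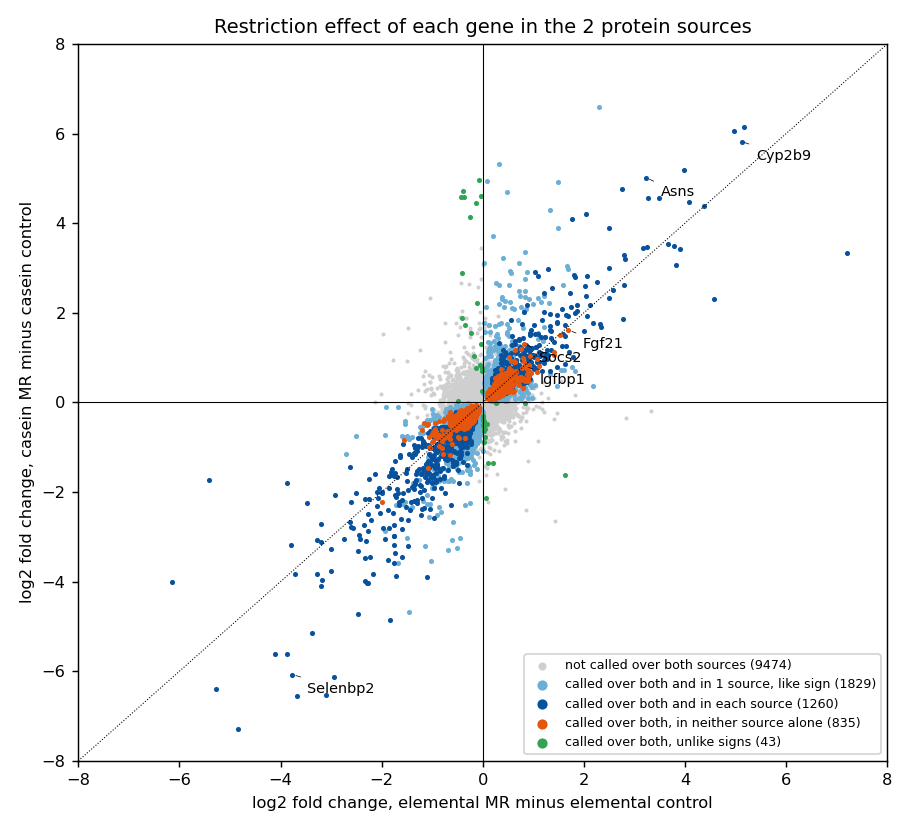
Log2 fold change (MR minus control) of each gene with elemental amino acids (x axis) and with casein (y axis), 6 libraries against 6 for each. Dark blue points are the 1260 genes called in each source and orange points the 835 called only over both. The orange points lie near the origin along the dotted line of equal effects, which follows nearly from how they were chosen.

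In the fit used for the rest of the report, which held all 4 groups, 13.4% of genes were called with elemental MR and 23.3% with casein MR. The 1260 genes called in each source comprised 579 that were higher and 681 that were lower. Their median absolute log2 fold change was 0.53 over both sources, and 841 of them (66.7%) had the larger effect with casein. So did 2699 of the 3967 genes called over both sources and 57.5% of all genes tested. The larger effect with casein is therefore not particular to this class. In 319 of the 1260 the 12 MR and 12 control libraries did not overlap at all, which was true of 321 genes (2.39%) among all tested. That nearly all of the 321 lie in this class follows largely from how it was chosen. The same holds for list members named below for the smallest p: little overlap of their libraries follows largely from that choice. The 835 genes reached only over both comprised 462 higher and 373 lower, with a median absolute log2 fold change of 0.24, or 1.18-fold. Their median SE was 0.079 over both sources, against 0.114 with elemental and 0.113 with casein diets alone. In 441 of the 835 (52.8%) an adjusted p within a source was under 0.1, and in 195 (23.4%) the unadjusted p was under 0.05 in both sources. All 835 had like signs in the sources, which follows nearly from how the class was chosen.

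Genes of the amino acid response rose in both sources. Of 36 ATF4 targets tested, 28 rose over both sources and 0 fell (14.4% and 15.1% of all genes), with a median log2 fold change of 0.93. Of the 28, 21 were called in each source, and 3 only over both. Asns stood at 0.763 to 10.4 CPM (counts per M reads of the scaled library; median 3.61) in the 12 control libraries and at 50.01 to 80.4 CPM (median 64.1) in the 12 MR libraries. The sides did not overlap in either source, and the log2 fold change was 3.95 ± 0.23 (SE; adjusted p = 5.55e-13). The rise was larger with casein (5.01) than with elemental diets (3.23; adjusted p of the difference 0.00155), and the control medians differed too, at 1.81 and 8.06 CPM. Psat1, which makes phosphoserine, rose from a median of 1.56 CPM (0 to 2.52) to 33.3 CPM (17.4 to 46.2), and the log2 fold change was 4.51 ± 0.21 (adjusted p = 1.09e-14). Again no MR library overlapped a control library. Phgdh, the first enzyme of serine synthesis, was barely detected in control livers (0 to 0.244 CPM) and reached 0.733 to 4.11 CPM with MR (4.38 ± 0.36). The filter on low counts asks for enough reads in 6 libraries, the size of a group. Phgdh could pass it only through its MR libraries, and a gene this low without a rise would not have been tested.

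Of the mitochondrial one-carbon enzymes of the same response, 3 rose without a called difference between the sources. Mthfd2 went from a median of 2.60 to 16.5 CPM (2.41 ± 0.20), Mthfd1l from 0.700 to 3.10 CPM (1.91 ± 0.24), and Aldh1l2 from 0.210 to 3.54 CPM (3.92 ± 0.29), without overlap in any of the 3. Like Phgdh, Aldh1l2 (0 to 0.665 CPM in control) could pass the filter only through its MR libraries. Shmt2, the mitochondrial serine hydroxymethyltransferase, named after its values were seen, was called over both (0.13 ± 0.05, adjusted p = 0.0399) but had unlike signs, at 0.26 with elemental (adjusted p = 0.00175) and -0.01 with casein (adjusted p = 0.957; adjusted p of the difference 0.0693). Pck2, the mitochondrial phosphoenolpyruvate carboxykinase, rose by 2.14 ± 0.13, with nearly equal values in elemental (2.12) and casein (2.16) diets. The translation repressor Eif4ebp1 rose by 0.70 ± 0.05, the transcription factor Atf5 by 0.95 ± 0.08, the pseudokinase Trib3 by 0.90 ± 0.16 and the mTORC1 inhibitor Sesn2 by 0.60 ± 0.11. Vldlr, a lipoprotein receptor, rose by 3.15 ± 0.18, and more with casein (3.88) than with elemental diets (2.50; adjusted p of the difference 0.0024).

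Some members of the response did not rise. Ddit3, the stress factor CHOP, was at 0.03 ± 0.11 on the log2 scale (adjusted p = 0.857), and Ddit4, an mTORC1 inhibitor, at -0.02 ± 0.18 (adjusted p = 0.95). The secreted factor Gdf15 had a value of 0.47 ± 0.21 (adjusted p = 0.0966), and it passed under limma-voom and without E_C_3418. Atf4 itself was called only over both sources, at 136 to 179 CPM in control and 139 to 213 CPM with MR (0.18 ± 0.07, adjusted p = 0.0451). Chac1, which degrades glutathione, was near the threshold too (0.66 ± 0.25, adjusted p = 0.0482). The calls of Atf4 and Chac1 were lost under 3 and 6 of 10 alternatives and in 13 and 18 of the 24 fits without 1 library.

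Cytosolic aminoacyl-tRNA synthetases, which charge tRNAs, moved less. Of 20, 11 rose and 1 fell over both sources, and 6 of the rises were called in each source. The median log2 fold change was 0.18. Gars, for glycine, went from 33.6 to 40.4 CPM in control to 60.2 to 86.2 CPM with MR, without overlap (0.88 ± 0.05, adjusted p = 4.3e-13). Iars rose by 0.45 ± 0.07, Mars, which charges methionine, by 0.44 ± 0.08 and Nars by 0.35 ± 0.05.

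**Figure D2:**
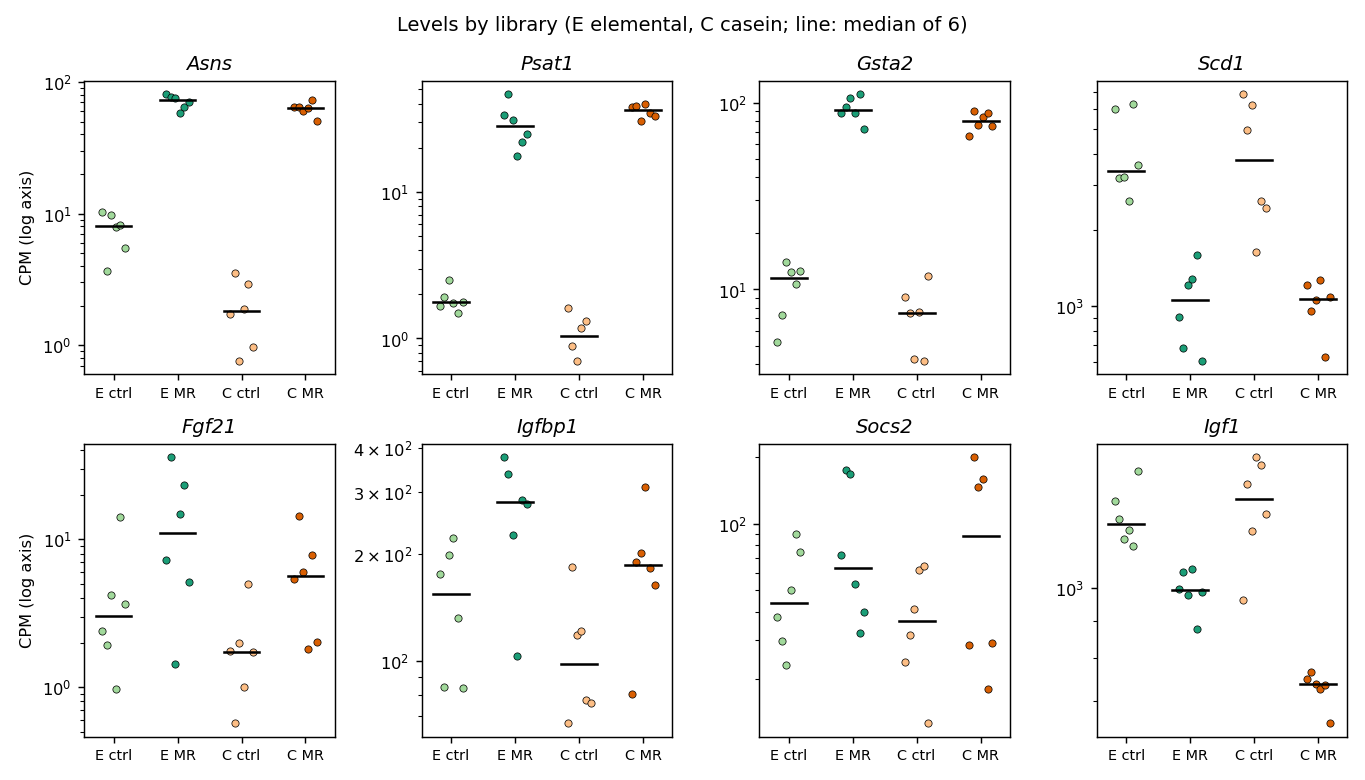
CPM of 8 genes in each of the 24 libraries on log axes, by group (E elemental, C casein; 6 libraries each; the line is the group median). Asns, Psat1, Gsta2 and Scd1 separate MR from control in both sources, while Fgf21, Igfbp1 and Socs2 overlap within each source; 1 control library of Psat1 at 0 CPM cannot be drawn on a log axis.

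Genes that NRF2 controls, or that make and use glutathione, rose together as well. Of 46 tested, 32 rose and 4 fell over both sources, 23 of the rises and 2 of the falls were called in each source, and the median log2 fold change was 0.43. Gsta2, a glutathione S-transferase, stood at 4.15 to 14.0 CPM (median 8.31) in control and at 66.6 to 111 CPM (median 88.0) with MR. The 12 libraries of each side were fully separate, and the log2 fold change of 3.31 ± 0.15 (adjusted p = 8.3e-15) was similar in elemental (3.18) and casein (3.45) diets. Gstm1 rose from a median of 1051 to 3478 CPM (1.63 ± 0.08), Ephx1, a microsomal epoxide hydrolase, from 174 to 520 CPM (1.62 ± 0.09), and Gsta4 from 41.5 to 119 CPM (1.56 ± 0.09). Gclc, which catalyses the first step toward glutathione, rose by 0.77 ± 0.08, and the quinone reductase Nqo1 by 1.95 ± 0.17. In 3 of the 46 genes the difference between the sources was called, against 2.34% of all genes.

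The methionine cycle and transsulfuration list had no common direction. Of 27 genes, 9 rose and 13 fell over both sources, with 3 rises and 5 falls in each source. Csad, which makes hypotaurine from cysteine sulfinate, rose from a median of 344 to 1448 CPM (1.82 ± 0.22). Chdh, which feeds choline into betaine, rose by 0.39 ± 0.05, while the betaine pathway gene Aldh7a1 fell by 0.45 and Dmgdh, which demethylates dimethylglycine, fell by 0.72 on the log2 scale. Mat1a, which makes S-adenosylmethionine in liver, rose by 0.40 ± 0.09 and the cysteine-forming Cth by 0.55 ± 0.15, both called with elemental MR and not with casein MR, though the difference between the sources was not called (adjusted p = 0.466 and 0.579). Cbs had a value of 0.15 ± 0.07 (adjusted p = 0.128). Of 22 folate genes, 8 rose and 5 fell: the rises were led by the mitochondrial enzymes above, and cytosolic Shmt1 fell from a median of 165 to 116 CPM (-0.50 ± 0.05). Of 10 polyamine genes, 3 rose and 4 fell. Amd1, which makes the aminopropyl donor, rose by 0.48 ± 0.09, while Paox and the antizyme inhibitor Azin1 fell by 0.44 and 0.32.

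The lists of genes with sex-biased expression in mouse liver had the largest medians in either direction of the 42 gene lists. Of 31 male-biased genes, 26 fell and 0 rose over both sources, 23 of them in each source, with a median log2 fold change of -1.77. Of 28 female-biased genes listed, 19 were tested. Of the 19, 15 rose and 1 fell, 10 of the rises in each source, with a median of 1.05. A gene near 0 in control could enter the 19 only through its MR libraries, so the filter favours rises in this list. The cytochrome P450 Cyp2b9 (ENSMUSG00000040660) went from 0.431 to 6.53 CPM (median 2.26) in control to 13.1 to 218 CPM (median 105) with MR. Though its MR libraries spread widely, no MR library overlapped a control library (5.49 ± 0.36, adjusted p = 6.68e-12). Cyp2a4 rose by 5.55 ± 0.49 and Cyp2a22 by 4.28 ± 0.35, and the organic anion transporters Slc22a26 and Slc22a27 by 3.61 ± 0.45 and 3.36 ± 0.32. Fmo1, a flavin monooxygenase, rose by 0.72 ± 0.06.

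Among male-biased genes, Selenbp2 (ENSMUSG00000068877) fell from 43.7 to 412 CPM (median 139) in control to 1.70 to 11 CPM (median 5.04) with MR, without overlap (-4.85 ± 0.43, adjusted p = 1.75e-09). Susd4 fell by 2.70 (SE 0.17) and the complement component C6 by 2.69 (SE 0.16), with nearly equal values in both sources. The steroid dehydrogenase Hsd3b5 (-4.54 ± 0.57), the secreted serpins Serpina12 (-4.22 ± 0.27) and Serpina1e (-3.55 ± 0.42), and the major urinary protein Mup12 (-3.57 ± 0.34) were called in each source. The falls of Hsd3b5 and Serpina12 were larger with casein (adjusted p of the difference 0.0242 and 0.00682). Cyp2a, Cyp2b, Gsta, Slc22a, Mup and Serpina1 are multigene families with closely similar members. How reads were divided among them is not known, so single values are uncertain.

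Other genes with the largest changes called in each source included the trefoil peptide Tff3 (-4.71 ± 0.51), the melanin enzyme Dct (-4.72 ± 0.37), the calcium-binding Cib3 (-3.77 ± 0.46), the acetylcholine receptor subunit Chrna4 (-3.64 ± 0.45) and Lrtm1 (-3.14 ± 0.44), all of which fell. The rise of Gsta1 (3.62 ± 0.28) from 0 to 1.06 CPM in control to 1.86 to 10.6 CPM with MR left no overlap. Like Phgdh, Gsta1 could pass the filter only through its MR libraries. Cox6a2, a muscle form of a cytochrome c oxidase subunit, rose by 4.10 ± 0.67. It reached 112 CPM in C_MR_3438, and without that library its log2 fold change was 2.63 (adjusted p = 1.63e-07).

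The growth hormone and IGF1 axis showed both directions: of 27 genes, 8 rose and 5 fell over both sources. Ghr, the growth hormone receptor, fell from 400 to 516 CPM in control to 180 to 324 CPM with MR, without overlap (-0.96 ± 0.07, adjusted p = 3.97e-11). Igf1, the hormone it induces, fell by 0.59 (SE 0.08), from a median of 1255 to 822 CPM. Both falls were larger with casein than with elemental diets (Ghr -1.16 and -0.75, adjusted p of the difference 0.0478; Igf1 -0.84 and -0.34, adjusted p 0.0191). The prolactin receptor Prlr rose by 0.67 ± 0.11 and the binding protein Igfbp2 by 0.79 ± 0.15, in each source. Igfbp1 and Socs2 of the same list were reached only over both.

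**Figure D3:**
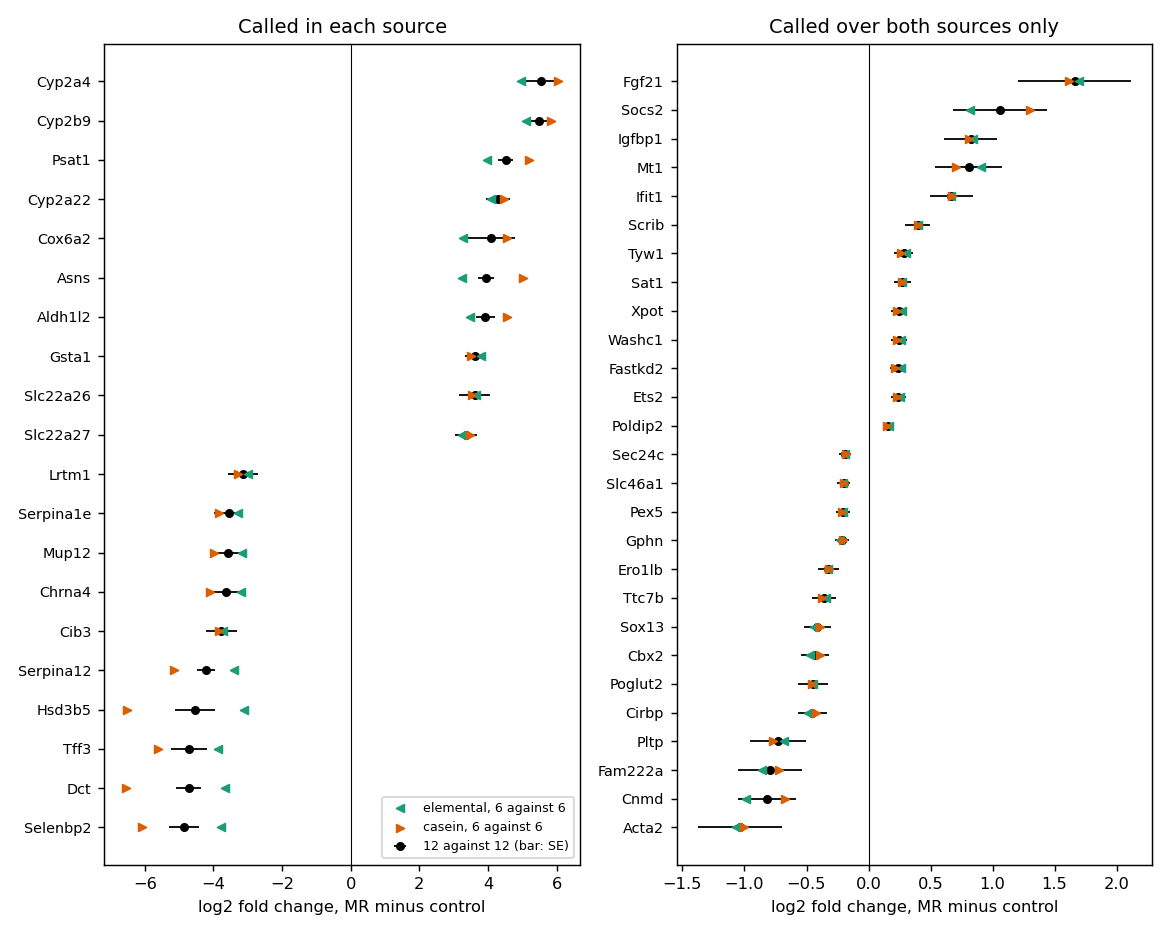
Log2 fold change (MR minus control, x axis) of the named genes called in each source (left) and of those called only over both sources (right; note the narrower axis). Black points with SE bars are 12 against 12 libraries, triangles the elemental and casein effects at 6 against 6. On the right the triangles of most genes coincide, which follows nearly from how these genes were chosen.

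Among the 835 genes reached only with 12 libraries a side, the largest rises among genes at a mean log2 CPM of 1 or more were those of Fgf21, Socs2, Igfbp1 and Mt1. Fgf21, the liver hormone of protein shortage, stood at 0.967 to 14.2 CPM (median 3.02) in elemental control and at 1.43 to 36.0 CPM (median 11.1) in elemental MR. In casein control it stood at 0.567 to 4.98 CPM (median 1.73) and in casein MR at 1.81 to 14.4 CPM (median 5.66). The groups overlapped in both sources, and 10 of 12 MR libraries lay above the control median. Its effects were nearly equal, 1.69 with elemental (adjusted p = 0.0691) and 1.62 with casein (adjusted p = 0.0954), and the value over both was 1.66 ± 0.45 (adjusted p = 0.00615). This call was kept in each of 10 alternatives and in each of the 24 fits without 1 library.

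Igfbp1 (ENSMUSG00000020429), which binds IGF1 in blood and is induced in fasting, rose from 66.5 to 223 CPM (median 120) to 80.4 to 377 CPM (median 214). The sides overlapped, 10 of 12 MR libraries were above the control median, and the log2 fold change was 0.82 ± 0.21 (adjusted p = 0.00405; 0.84 with elemental and 0.81 with casein). Socs2, a feedback inhibitor of growth hormone signalling, ran from 12.5 to 90.1 CPM in control and from 18 to 200.4 CPM with MR (1.06 ± 0.38, adjusted p = 0.0363). Its call was lost under 2 of 10 alternatives and in 12 of the 24 fits without 1 library (highest adjusted p = 0.0805 among these). Mt1, a metal-binding thiol protein, rose by 0.81 ± 0.27, with every MR library above the control median.

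The smaller rises named next were taken for the smallest p over both sources in this class. A low spread and MR libraries above the control median follow largely from that choice. Poldip2, a mitochondrial and nuclear protein, went from a median of 52.2 to 58.2 CPM (0.16 ± 0.04), and 11 of 12 MR libraries were above the control median. Xpot, which exports tRNA from the nucleus, rose by 0.25 ± 0.06, Tyw1, which modifies phenylalanine tRNA, by 0.28 ± 0.07, and Sat1, which acetylates polyamines, by 0.27 ± 0.07. In each of these 3 genes all 12 MR libraries exceeded the control median. Washc1 of the endosomal WASH complex (0.25 ± 0.06), the transcription factor Ets2 (0.24 ± 0.06), the mitochondrial RNA protein Fastkd2 (0.24 ± 0.06) and the polarity protein Scrib (0.40 ± 0.10) also rose.

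The falls reached only over both included further genes of secretion and folding. Ero1lb, an oxidase that drives disulfide formation in the endoplasmic reticulum (ER), went from a median of 18.2 to 13.9 CPM (-0.33 ± 0.08), Poglut2, a glycosyltransferase of the ER, fell by 0.45, and Sec24c, a COPII coat protein, fell by 0.19. The folate transporter Slc46a1 fell by 0.20, the molybdenum cofactor gene Gphn by 0.21, the peroxisomal import receptor Pex5 by 0.21, and the cold-inducible RNA-binding protein Cirbp by 0.45. For Sec24c, Gphn, Pex5, Ttc7b (-0.36 ± 0.10) and the Polycomb protein Cbx2 (-0.43 ± 0.11), 0 of 12 MR libraries exceeded the control median. The falls of this paragraph were likewise taken for the smallest p over both sources. Sox13, a transcription factor, fell by 0.41.

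The largest falls in this class among genes with an established symbol and a mean log2 CPM of 1 or more, taken by size and not by p, were less even. Acta2, smooth muscle actin, had medians of 1.99 and 1.84 CPM in control and MR, and its log2 fold change of -1.04 ± 0.34 (adjusted p = 0.0211) became -0.61 (adjusted p = 0.105) without E_C_3430, which stood at 13.6 CPM. It became -0.86 (adjusted p = 0.0563) without C_C_3429, and was also lost with 1 surrogate variable and under limma-voom. Of 18 markers of stellate cells and fibroblasts, a list that includes Acta2, 8 fell, 5 of them only over both. Their summed level ran from 524 to 724 CPM with MR and from 590 to 687 CPM with control, and its part in the fall of Acta2 was not tested. Cnmd (-0.82 ± 0.23), Fam222a (-0.79 ± 0.26) and the phospholipid transfer protein Pltp (-0.73 ± 0.23) had larger medians in control. Fam222a was at -0.57 (adjusted p = 0.0598) without E_C_3418, and Pltp at -0.56 (adjusted p = 0.0614) under limma-voom.

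Genes of the secretory route fell together in both sources. Of 32 ER chaperones and genes of the unfolded protein response, 23 fell and 2 rose over both (13 falls and 1 rise in each source; median -0.33). Of 38 genes of the translocon, signal peptidase and N-glycosylation, 22 fell and 1 rose (11 falls and 1 rise in each; median -0.22), and of 35 COPII and COPI coat genes, 22 fell and 1 rose (14 falls in each, 4 falls only over both; median -0.22). The disulfide isomerase Pdia6 went from 290 to 469 CPM in control to 178 to 267 CPM with MR, without overlap (-0.73 ± 0.07, adjusted p = 8.3e-09; -0.70 with elemental and -0.75 with casein).

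At the membrane, Sec63, which helps drive chains into the ER, fell by 0.42, and the oligosaccharyltransferase subunits Rpn2 and Ddost by 0.41 and 0.48. The vesicle fusion protein Sec22b (median 78.5 to 59.6 CPM, -0.40 ± 0.04), the cargo receptors Lman1 (-0.35 ± 0.04) and Surf4 (-0.25 ± 0.03), and the retrieval receptor Kdelr1 (-0.29 ± 0.03) fell without overlap of MR and control libraries. Summed over the COPII and COPI list, levels were 2673 to 3059 CPM with MR and 2975 to 3440 CPM with control. In elemental diets the ranges were 2783 to 3059 and 3268 to 3440 CPM, and in casein diets 2673 to 2935 CPM and 2975 CPM or more, without overlap in either. Differences between the sources were called for 2, 1 and 1 genes of these 3 lists, against 2.34% of all genes.

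Cytosolic ribosomal proteins moved the other way, by small amounts. Of 82 cytosolic ribosomal proteins, 49 rose and 1 fell over both sources, with a median log2 fold change of 0.16. Of the 49, 17 were called in each source and 16 only over both; with elemental MR alone 30 rose, and with casein MR alone 21. Rpl12 went from 119 to 207 CPM (median 162) in control to 191 to 260 CPM (median 218) with MR (0.46 ± 0.07, adjusted p = 1.6e-05), with a narrow overlap. Rpl36a (0.38 ± 0.06), Rps20 (0.34 ± 0.06) and Rps26 (0.30 ± 0.05) followed. The summed level of the list ran from 17310 to 21690 CPM in control and from 19760 to 24770 CPM with MR, so single libraries of the sides overlapped. Many ribosomal protein genes have processed pseudogenes, and single values are uncertain for that reason.

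Of 42 ribosome biogenesis genes, 16 rose and 2 fell. Of these rises 9 were called only over both, including the RNA polymerase I subunits Polr1a (0.23) and Polr1b (0.29), and 2 were called in each source, the nucleolar proteins Npm1 (0.27 ± 0.05) and Gnl3 (0.40 ± 0.07). The polymerase I subunits were named after their values were seen. Of 60 initiation and elongation factors, 14 rose and 3 fell. That is 28.3% called, near the 29.5% of all genes, and the median log2 fold change was 0.05. Among the rises, Eif4g2, a noncanonical scaffold (0.39 ± 0.04), and the eIF2 subunit Eif2s2 (0.33 ± 0.04) fully separated MR from control libraries. In these 3 lists 0 genes had a called difference between the sources, against 2.34% of all genes.

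Cytosolic and mitochondrial chaperones and the proteasome rose. Of 34 chaperones outside the ER, 21 rose and 1 fell, 11 of the rises in each source. The mitochondrial Hsp70 gene Hspa9 went from 311 to 357 CPM to 458 to 587 CPM (0.60 ± 0.04, adjusted p = 3.2e-12), Hsp90ab1 rose by 0.41 ± 0.05 and the chaperonin partner Hspe1 by 0.39 ± 0.05, all without overlap. Of 43 proteasome subunits, 27 rose and 0 fell, 7 of them in each source. This list was uneven between the sources, with 7 rises in elemental and 28 in casein diets. The ubiquitin receptor Psmd4 rose by 0.40 ± 0.06 over both, by 0.24 with elemental and 0.56 with casein (adjusted p of the difference 0.0711). Of 8 mitochondrially encoded subunits 6 fell, 5 in each source, among them mt-Nd2 (-0.55 ± 0.05) and mt-Cytb (-0.56 ± 0.07).

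**Figure D4:**
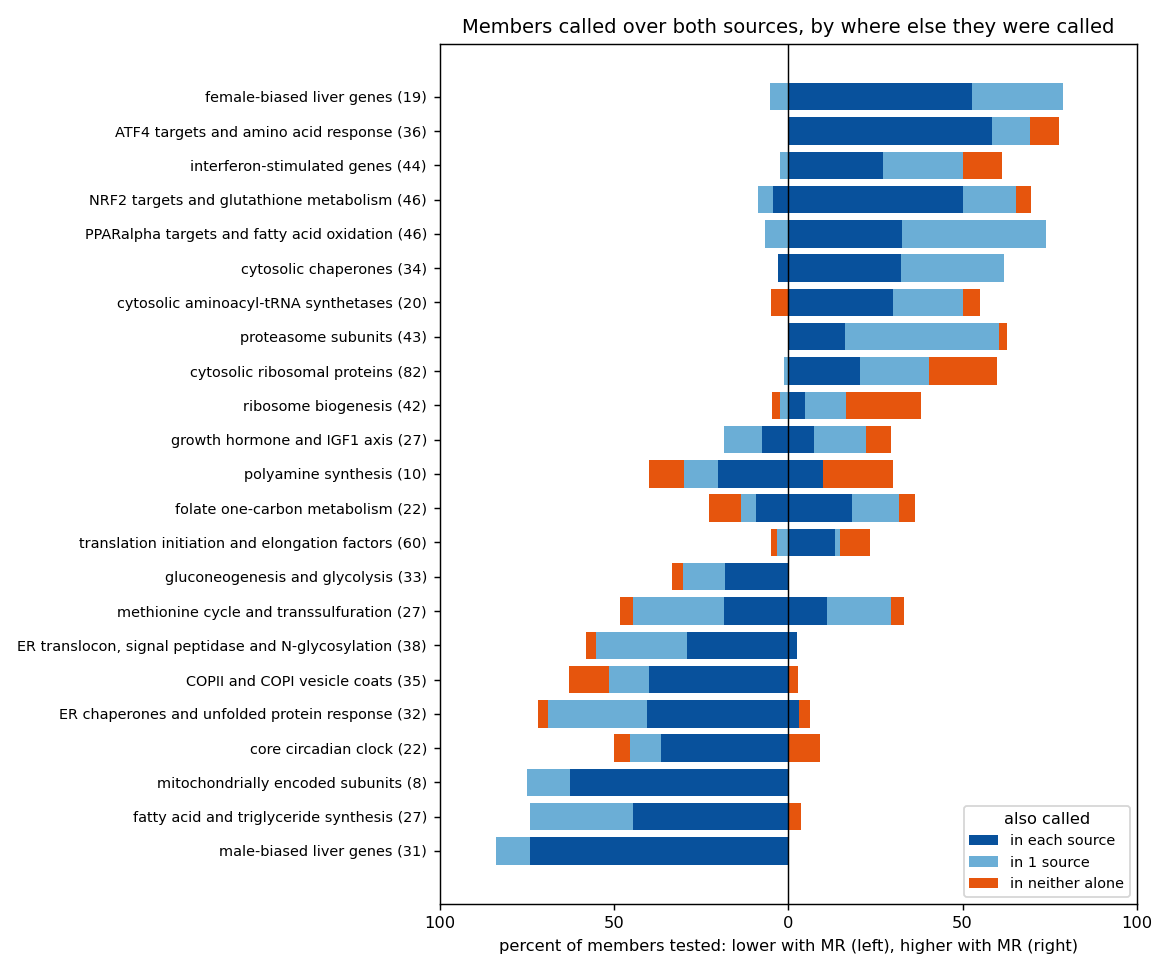
Percent of tested members of 23 gene lists that were called over both sources, lower with MR to the left and higher to the right, with the number tested in brackets. Colours divide the calls into those also called in each source, in 1 source, and in neither source alone; the last (orange) makes up 9 of the 16 rises in ribosome biogenesis.

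Genes of fat synthesis were lower and genes of fat oxidation higher. Of 27 lipogenic genes, which build fatty acids and triglycerides, 20 fell and 1 rose over both sources, 12 of the falls in each source (median -0.63). Scd1, the stearoyl-CoA desaturase, ranged over 1635 to 6856 CPM in control and 609 to 1598 CPM with MR, without overlap, and fell by 1.99 in each source (SE 0.22 over both, adjusted p = 6.27e-08). Thrsp, a lipogenic regulator, fell by 2.91, Pklr, the liver pyruvate kinase, by 1.32, Fasn by 1.30, and the transcription factor Srebf1 by 0.78. Fasn overlapped, at 171 to 805 CPM in control and 121 to 250 CPM with MR. The casein controls were split: C_C_3407, C_C_3413 and C_C_3421 stood at 479 to 805 CPM for Fasn and 401 to 553 CPM for Thrsp. C_C_3429, C_C_3436 and C_C_3437 stood at 171 to 318 and 80.3 to 144 CPM. The split was seen in the values, and its cause was not tested. Lpin1 had a value of -0.24 ± 0.21 (adjusted p = 0.43). The list of PPARalpha targets and fat-oxidizing enzymes had 46 genes tested, of which 34 rose and 3 fell, 15 of the rises in each source. The fatty acid transporter Cd36 rose by 1.94 ± 0.20, with 1.74 in elemental and 2.13 in casein diets. In 16 of the 46 the difference between the sources was called, so a value over both averages unlike effects. For Cyp4a31, a fatty acid hydroxylase, the value of 2.91 ± 0.32 averaged 1.76 and 4.10, and for Acot2, a thioesterase, 2.13 ± 0.22 averaged 1.29 and 2.97. Cpt1a, the gatekeeper of mitochondrial fat import, was at -0.16 ± 0.08 (adjusted p = 0.129).

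Of 33 genes of gluconeogenesis and glycolysis, 11 fell and 0 rose over both sources. Besides Pklr, the glycogen phosphorylase Pygl (-0.62 ± 0.06), the fructokinase Khk (-0.66 ± 0.08) and Gapdh (-0.37 ± 0.06) fell in each source. Pck1 (0.05 ± 0.20, adjusted p = 0.895) and G6pc (-0.22 ± 0.12, adjusted p = 0.196), which make glucose in fasting, did not pass. G6pc passed without E_MR_3403 (-0.30).

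Interferon-stimulated genes rose in both sources. Of 44, 27 rose and 1 fell over both, 12 of the rises in each source and 5 only over both, with a median of 0.44. A difference between the sources was called for 0 of the 44, near the 2.34% of all genes, so it does not show equal effects. Usp18, an inhibitor of interferon signalling, went from 4.88 to 11.1 CPM to 12.2 to 24.7 CPM, without overlap (1.17 ± 0.11, adjusted p = 9.4e-09). Ifi44 (1.07 ± 0.13), the nucleic acid sensor Zbp1 (0.89 ± 0.12) and Isg15 (0.86 ± 0.13) rose in each source. Ifit1 was called only over both (0.67 ± 0.18), at 12.1 to 49.9 CPM in control and 21.0 to 125 CPM with MR. Of 20 Kupffer cell and macrophage markers 1 rose and 1 fell, with summed levels of 622 to 1271 CPM with MR and 609 to 973 CPM with control. Of 12 lymphocyte and neutrophil markers 1 fell, with sums of 22.2 to 44.3 and 22.9 to 45.5 CPM. Their part in the interferon result was not tested.

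Of 22 clock genes, 11 fell and 2 rose over both sources, 8 of the falls in each source. A difference between the sources was called for 0 of the 22, near the 2.34% of all genes. Bhlhe41, a clock repressor, went from a median of 3.64 to 0.408 CPM (-2.75 ± 0.41), its relative Bhlhe40 from 46.8 to 25.6 CPM (-0.88 ± 0.14), and Per2 from 9.56 to 2.79 CPM (-1.54 ± 0.26). The labels used here give no hour of collection, so collection time was not tested.

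An additive value is shared only where the effects in the sources are alike. Of the 3967 genes called over both, 231 had a called difference between the sources, among them 97 of the 1260 called in each source and 0 of the 835. The 0 follows nearly from how the class of 835 was chosen, so it does not show that those effects are alike. Bhmt, which remethylates homocysteine with betaine, shows the limit: it was called over both at -1.88 ± 0.33, yet its effect was -0.52 with elemental (adjusted p = 0.0647) and -3.26 with casein, a called difference (adjusted p = 1.73e-06). Casein MR libraries stood at 62.8 to 128 CPM and elemental MR libraries at 405 to 870 CPM. Gnmt, which consumes S-adenosylmethionine, showed the same order, with -0.25 in elemental and a called fall in casein diets (adjusted p = 7.65e-08). Lepr, the leptin receptor, rose by 1.66 ± 0.32, with 0.83 (not called) and 2.50. Egfr fell by 0.87, with -0.49 (not called) and -1.25. For Lepr and Egfr the difference was not called (adjusted p = 0.128 and 0.512).

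In 43 genes the call over both sources combined a call in 1 source with an unlike sign in the other. They included 6 skeletal muscle markers, and 25 of the 43 were still called without C_MR_3438. In the fit of all 4 groups 11 genes were called in both sources with opposite signs, and 0 of the 11 were called over both. Among them, named after its values were seen, was the secreted glycoprotein Ahsg (0.33 with elemental, -0.39 with casein).

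The class of genes reached only over both has soft edges. Just inside it were Maf1, Ubap2 and C9orf72, with lowest within-source adjusted p-values of 0.05005, 0.05006 and 0.05029. Just outside it, called in 1 source, were Mettl21a, Tsix and Cltc, at 0.04977, 0.04995 and 0.04998. At the edge of the call over both were Krt10, Matr3 and Cask inside (adjusted p = 0.04989, 0.04994 and 0.04996) and Tmem128, Myo1e and Abcb8 outside (0.05001, 0.05002 and 0.05004).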

How the data were processed

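Liver RNA of 24 samples was sequenced. The authors deposited read counts per Ensembl gene and library for 15161 genes, and a normalized signal that equals these counts divided by 1 size factor per library. Only the deposited counts entered tests. The aligner, the counter, the strand and the build: not given in the sources used here. In the deposited table each gene has at least 72 reads over the libraries. Symbols came from that table (13002 genes) or the reference names (2119), and 40 genes had none. No per-sample column was left unused (0), and 0 of 60 pairs of libraries within groups were identical.

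In R 4.3.3, edgeR 4.0.16 was fitted to the counts after filterByExpr (13441 genes, 99.9% of reads) with TMM scaling. The quasi-likelihood test of MR used all 24 libraries with protein source as a covariate (common biological coefficient of variation 0.165). A second fit of 4 group means (0.159) gave the effect in each source and the test of their difference. P-values were adjusted by Benjamini-Hochberg over all genes within a comparison, and an adjusted p under 0.05 was called. Standard errors came from the fold change and the F statistic. CPM were computed on TMM-scaled library sizes, with a prior count of 2 on log scales. Library measures were compared by permutation tests with 100000 resamples (scipy). The code was tested on simulated counts.

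Genes called over both sources were classed by their within-source calls: each source, 1 source, or neither. Named genes were the 10 rises and 10 falls called in each source with the largest smaller within-source change, the 10 rises and 10 falls of the neither class with the smallest p and the 4 of each with the largest change, up to 4 members per described list with the smallest p, and 41 fixed genes. A mean log2 CPM of 1 or more was needed only for the rises and falls taken from the each-source and neither classes. So was an established symbol (no predicted, clone or Rik name). Some genes are not reported here. The comparison, the 42 gene lists, the 10 marker lists and these rules were chosen with earlier results of these data known, and the 23 lists described by members were picked after their counts were seen. Motifs were searched by exact letters in RefSeq promoter windows (GRCm38.p6).

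Alternatives were the mean of the within-source contrasts, no source term, other scalings (upper quartile, DESeq2 size factors), no filter, a filter of 1 CPM or more throughout a group, a robust prior, 1 surrogate variable (sva 3.50.0), the DESeq2 1.42.0 Wald test (37 adjusted p-values NA), limma-voom with quality weights (limma 3.58.1), each source fitted alone, a threshold of 0.01, a change of 2-fold or more, and leaving out 1 library at a time. Those for the count of differences between sources were added after the data were seen. Replicate numbers are unique to each library, so nothing pairs them, and the labels name no batch.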

Additional observations from a re-analysis of the deposited data

Results flagged for a closer look

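In 31 of 348 groups of 6 libraries tested (8.91%), 1 library stood far from the other 5. Chance flags about 1 in 20 such groups. C_C_3407, a casein control, did so in 7 genes: it was the highest casein control for Atf5 (345 CPM), Cd36 (72.9 CPM), Cyp2a22 (8.77 CPM), Cyp2b9 (6.53 CPM), Nqo1 (5.16 CPM), Slc22a27 (2.43 CPM) and Cyp8b1 (931 CPM). Of these genes, Cyp8b1 fell with MR and the other 6 rose. C_MR_3438 did so in 6 genes: it was the highest casein MR library for Cox6a2 (112 CPM), Lrtm1 (7.10 CPM), Ttc7b (9.15 CPM), Dct (0.273 CPM) and Tff3 (0.319 CPM), and the lowest for Igf1 (651 CPM). For the hormone Fgf21, 2 control libraries stood high, E_C_3428 (14.2 CPM) and C_C_3436 (4.98 CPM).

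Other libraries stood apart in 1 or 2 genes each. Among elemental controls these were E_C_3430 for Acta2 (13.6 CPM), E_C_3418 for Fam222a (8.53 CPM), E_C_3428 for Pltp (49.9 CPM), and E_C_3401 for Mt1 (99.6 CPM) and Tff3 (10.05 CPM), all high. Among elemental MR libraries, E_MR_3424 was high for Cbx2 (4.26 CPM), E_MR_3416 for Chrna4 (2.68 CPM), E_MR_3405 for Ero1lb (22.7 CPM) and E_MR_3420 for Hsd3b5 (76.5 CPM), and E_MR_3420 was low for Lepr (3.16 CPM). Among casein controls, C_C_3429 was high for Chac1 (5.86 CPM) and C_C_3436 low for Ets2 (27.3 CPM). Among casein MR libraries, C_MR_3433 was high for Cpt1a (226 CPM) and Ddit4 (16.3 CPM), C_MR_3412 for Fasn (216 CPM) and C_MR_3431 for Slc22a26 (12.9 CPM).

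For 16 of the 157 named genes the MR effect differed between the sources by edgeR's quasi-likelihood test of the difference (Benjamini-Hochberg over all genes). The share was 2.34% of all genes tested and 5.82% of those called over both sources. Many of the 157 were chosen for large changes or small p. The values are casein minus elemental log2 fold changes. Among genes that rose, the difference was 2.35 for Cyp4a31, 1.68 for Acot2, 1.78 for Asns, 1.39 for Vldlr and 1.19 for Hspb1, so each of these 5 rises was larger with casein. Among genes that fell, it was -3.42 for Hsd3b5, -2.88 for Dct, -2.74 for Bhmt, -1.76 for Serpina12, -0.82 for Dmgdh, -0.75 for Gnmt, -0.50 for Igf1, -0.41 for Ghr, -0.36 for Alb, -0.33 for Rpn2 and -0.31 for P4hb. Each of these 11 falls was larger with casein.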

How the results depend on the processing

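No named gene that was called changed direction in any alternative or in the fits without 1 library. Under the other settings the number of genes called over both sources was 3778 to 4091, of those called in each source 1176 to 1390, and of those reached only over both 733 to 1021. The larger direction over both turned without a filter (2074 higher, 2004 lower) and with the stricter filter (1955 higher, 1901 lower), and without any 1 of E_C_3418, E_C_3430, C_C_3407, C_C_3413, C_C_3429 or C_C_3436 (1909 to 1983 higher, 1858 to 1971 lower). Thresholds moved the counts most: at an adjusted p under 0.01, 718 genes were called in each source and 153 for the difference between the sources, and at 2-fold or more 479, 244, 11 and 97 genes were called over both, in each source, only over both and for the difference. The class reached only over both was the least stable in its members: 612 of 835 were shared with the class under 1 surrogate variable, 620 under limma-voom, 753 with each source fitted alone, and 99 at an adjusted p under 0.01, where the class held 650 genes. Leaving out 1 library gave 3719 to 4039 genes over both, 1061 to 1277 in each source, 758 to 891 only over both (534 to 649 of them shared) and 227 to 404 for the difference. Without C_MR_3438, 0 cytosolic aminoacyl-tRNA synthetases and 3 of 7 cholangiocyte markers fell (1 and 5 with it), 1 male-biased gene rose (0 with it), and 0 muscle markers rose and 1 fell (8 and 0 with it). With upper quartile scaling 1 clock gene rose (2 in the reported fit). The cause of these shifts was not tested. No paired analysis was possible because the replicate numbers are unique to each library. Depth limits genes under about 1 CPM, such as Phgdh in control livers, for which single reads move a library's value.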

Other observations

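Other gene lists held more falls than rises, and the share of falls called in each source varied. Over both sources 25 of 43 urea cycle and amino acid-degrading genes fell and 0 rose, yet 4 of the falls were called in each source, and the median log2 fold change was -0.08 with elemental and -0.41 with casein MR. In the cholesterol list, of 27 genes 18 fell and 0 rose, 4 of them in each source. Of 39 complement and coagulation genes, 32 fell and 1 rose, 14 of the falls in each source, and the difference between the sources was called for 19. Of 30 acute phase genes, 23 fell and 1 rose, with 14 falls in each source and 11 called differences. Of 26 genes of apolipoproteins and lipoprotein assembly, 15 fell and 2 rose, with 4 falls and 1 rise in each source. Alb, the most abundant secreted protein of the liver, fell by 0.53 (SE 0.06), by 0.35 with elemental and by 0.71 with casein.

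In some lists most members were not called, as was true of all genes tested, of which 29.5% were called. The share called was 10% for the spliceosome, 18.8% for cell cycle, 23.5% for mitochondrial synthetase and 24.4% for mitochondrial ribosomal genes. It was above that of all genes for respiratory chain subunits (37.7%) and insulin signalling (45.8%). Of 40 core spliceosome proteins 3 rose and 1 fell, of 32 cell cycle genes 4 rose and 2 fell, and of 17 mitochondrial aminoacyl-tRNA synthetases 3 rose and 1 fell. Of 78 mitochondrial ribosomal proteins 14 rose and 5 fell, where 49 of 82 cytosolic ones rose. Of 77 nuclear-encoded respiratory chain subunits 22 fell and 7 rose, 3 of the falls and 1 rise in each source. Of 24 genes of hepatic insulin signalling 5 rose and 6 fell, and the insulin receptor Insr was at 0.02 ± 0.07 on the log2 scale (adjusted p = 0.872 in edgeR's quasi-likelihood test).

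In others most members were called. Of 22 genes of bile acid synthesis and transport, 12 fell and 5 rose. Cyp7a1, the rate-limiting enzyme, was at -0.14 ± 0.28 (adjusted p = 0.752), and Cyp8b1, which sets the share of cholic acid, was called only over both (-0.34 ± 0.12, adjusted p = 0.0357) and lost its call with a robust prior and in 10 of the 24 fits without 1 library. Of 24 pericentral markers 13 fell and 3 rose, and of 22 periportal markers 14 fell and 3 rose.

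Of 7 cholangiocyte markers 5 fell and 0 rose, 1 of the falls in each source, with a median log2 fold change of -0.66 and a summed level of 30.3 to 53.9 CPM with MR and 46.2 to 90.5 CPM in control. Of 20 endothelial markers 1 rose and 1 fell, of 10 erythroid markers 1 fell, of 6 adipocyte markers 1 rose and 1 fell, and the 1 pancreatic marker tested fell, at 14.1 to 24 CPM with MR and 21.1 to 372 CPM in control. These markers' part in the results was not tested.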
